A study of Homo sapiens with 12 samples.

Results

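A549 lung adenocarcinoma cells treated with SP600125, which blocks the c-Jun N-terminal kinases (JNK), were compared with untreated A549 cells across all genes by RNA sequencing. The comparison rests on 4 of the 12 libraries of the series, chosen by their labels: 2 of A549 cells kept for 72 h in 50 µM SP600125 (named A549_SP600125) and 2 of A549 cells labelled as not treated (A549_NT). The remaining libraries come from A549 cells in 10 µM SR11302, a compound used in the study against AP-1 (A549_SR11302, 2 libraries), and from BEAS-2B, a line of immortalised bronchial epithelial cells, under SP600125 (B2B_SP600125), SR11302 (B2B_SR11302) or no treatment (B2B_NT), with 2 libraries each. The genotype label of all cells is wild type. The inhibitors were added in the solvent DMSO, and the sources differ on the controls: the labels call them not treated, whereas a legend of the study names DMSO as the control of its SR11302 expression heatmaps. Whether the A549_NT cells received solvent is thus unclear, and SP600125 and its solvent cannot be told apart. Nor do the sources say whether the paired libraries of a group came from separate cultures. The p-values measure the spread between paired libraries, estimated jointly over all 6 groups of the 12 libraries. This spread may be technical.

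JNK is the last kinase of a stress-activated cascade in which upstream kinases (MAP3K and MAP2K proteins) activate JNK on scaffold proteins. JNK phosphorylates JUN and related factors, which pair with FOS proteins to form AP-1, a dimeric transcription factor that binds the sequence TGANTCA and drives genes of growth, invasion and inflammation. JUN, FOSL1 and other AP-1 genes are themselves targets of AP-1 and of mitogen signalling. SP600125 competes with ATP at the JNK active site and, at high concentrations, also inhibits other protein kinases. A549 cells have functional p53, a loss of the CDKN2A locus and a constitutively active NRF2 pathway.

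Reads counted in genes numbered 13969766 and 15012771 in the A549_SP600125 libraries, against 19868320 and 20455919 in the A549_NT libraries. Levels are given as CPM (gene counts relative to library size) scaled by the TMM factors of edgeR, which allows a gene to be compared between libraries but not with genes of other length. Replicate libraries correlated across genes with r = 0.991 in A549_SP600125 and 0.993 in A549_NT. Reads outside annotated genes made up 17.0% and 17.7% of the reads in A549_SP600125, against 23.8% and 25.9% in A549_NT. The same split was seen in BEAS-2B, at 15.08% and 15.14% in B2B_SP600125 and 14.58% and 14.7% in B2B_SR11302, against 25.78% and 24.15% in B2B_NT. The A549_SR11302 libraries held 16.68% and 20.12%. The sample titles and the study do not say whether treated and untreated libraries were prepared and sequenced together. Treatment and a batch of libraries thus cannot be told apart, here or in the fold changes below. The A549 label was checked on 7 markers of the line. ALDH1A1, an aldehyde dehydrogenase abundant in A549 cells, stood at 13761 and 13500.0 CPM in A549_SP600125, against 7737 and 7845 CPM in A549_NT, and AKR1B10, an aldo-keto reductase, at 5054 and 5413 CPM in A549_SP600125, against 5841 and 5326 CPM in A549_NT. Each of the 7 stood above 79 CPM in all 4 libraries. Over 5 genes high in BEAS-2B the A549_SP600125 libraries summed to 9.76 and 8.82 CPM, and the A549_NT libraries to 0.334 and 7.59 CPM, most of it from SPARC, a matrix protein. CDKN2A, a tumour suppressor absent from the A549 genome, had no count in the 3 other libraries compared here but 0.796 CPM in A549_NT replicate 2. The part of BEAS-2B reads in the results was not tested beyond the fits without that library. ALDH1A1 was not called in the fit of all 12 libraries (0.81 ± 0.67), where the B2B_NT libraries held 1.44 and 46.7 CPM, and it was called in a fit of the 4 A549 libraries alone (0.78, adjusted p = 3.12e-08).

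Of 16373 genes tested, 3910 were higher in A549_SP600125 than in A549_NT (23.9%) and 4087 were lower (25.0%), by the quasi-likelihood test of edgeR. A call required an adjusted p (Benjamini-Hochberg) under 0.05 with a log2 fold change of at least 0.5 in size. Throughout, "rose", "fell" and "called" refer to this rule, and fold changes are log2 of A549_SP600125 over A549_NT ± SE with 2 libraries per group. Overlap between the libraries of the groups is described for named genes only and was not counted over all genes. These genes were picked by their change or after their values were seen, so absence of overlap adds no evidence to a call. A change of at least 4-fold was reached by 550 genes that rose and 990 that fell. Calls held in each of the 4 fits that left out 1 library for 5946 genes. Counts given without a library come from these fits, with libraries joined by "or" left out 1 at a time. Fold changes ran with the GC content of the transcripts: the median was 0.47 in the fifth of genes with the lowest GC content and -0.71 in the fifth with the highest (Spearman's rho = -0.42 across 13348 genes, which are not independent replicates). With a correction for GC content fitted in each library, 3903 genes were higher and 2869 lower of 15752, and 5386 of 7683 calls were kept in direction, so corrected values are given below where they change the call of a gene described. A list whose shares lie near 23.9% and 25.0% does not stand apart from all genes tested. Under 95% of the sequence windows were unique in the genome for ATF4 (65%), MAPK8IP1 (78%), RRM2 (86%) and, at 91% to 94%, for ASNS, BCL2A1, CD68, CDC20, CDT1, KIF18B and NUPR1, whose levels are therefore uncertain.

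The largest rises included p53 targets, a cytoskeletal actin and a basement membrane gene. TP53INP1, a p53 target that promotes autophagy and cell death, stood at 114 and 105 CPM in A549_SP600125, against 6.003 and 6.64 CPM in A549_NT (4.11 ± 0.32, adjusted p = 3.82e-07). KLHL24, which encodes an adaptor of a ubiquitin ligase, stood at 38.4 and 34.4 CPM in A549_SP600125, against 2.67 and 2.65 CPM in A549_NT (3.77 ± 0.37). ACTA2, the smooth muscle actin, stood at 49.2 and 43.0 CPM in A549_SP600125, against 3.39 and 3.40 CPM in A549_NT (3.76 ± 0.17). For each of these genes both treated libraries lay far above both untreated ones. The other 9 of the 12 largest rises were PPP1R3C, a glycogen-targeting subunit of protein phosphatase 1 (3.50), SLFN5 (3.44), SPATA18, a p53-induced mediator of mitochondrial quality control (3.35), GACAT2 (3.33), YPEL2 (3.31), CCNG2, an atypical cyclin linked to cell cycle arrest (3.24), IGFBP7, a secreted binding protein of insulin-like growth factors (3.08), CALCOCO1, an autophagy receptor (3.02), and NID2, a basement membrane protein (2.87).

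**Figure D1:**
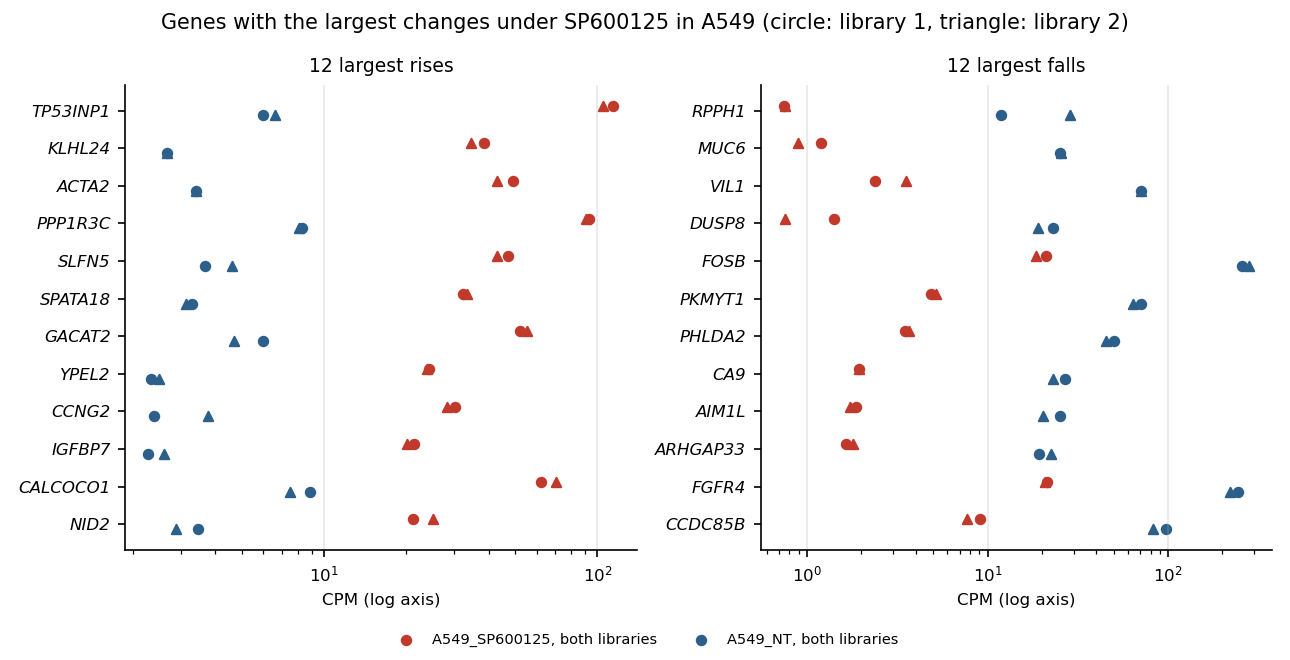
Levels of the 12 genes with the largest rises (left) and the 12 with the largest falls (right) in CPM on a log axis, with a point for each library of A549_SP600125 (red) and A549_NT (blue). In all 24 genes the libraries of the groups do not overlap, which follows from picking them by the size of this change. TP53INP1 lies above 100 CPM in A549_SP600125 but under 10 CPM in A549_NT.

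Among the 12 largest falls were a gene of microvilli, a growth factor receptor, a MAP kinase phosphatase and an AP-1 subunit. VIL1, the actin-bundling protein villin of microvilli, stood at 2.38 and 3.52 CPM in A549_SP600125, against 70.4 and 70.6 CPM in A549_NT (-4.57 ± 0.31, adjusted p = 1.06e-07). FGFR4, a fibroblast growth factor receptor, stood at 21.5 and 20.7 CPM in A549_SP600125, against 244 and 220.0 CPM in A549_NT (-3.46 ± 0.20). PKMYT1, the kinase that holds CDK1 inactive before mitosis, stood at 4.84 and 5.17 CPM in A549_SP600125, against 70.4 and 63.8 CPM in A549_NT (-3.74 ± 0.26). Treated and untreated libraries were again well apart. DUSP8, a phosphatase that acts on JNK and p38, had 1.42 and 0.758 CPM in A549_SP600125, against 23.01 and 19.1 CPM in A549_NT (-4.28 ± 0.24), and the mucin gene MUC6 had 1.19 and 0.896 CPM in A549_SP600125, against 25.1 and 25.6 CPM in A549_NT (-4.60 ± 0.33). The remaining falls were RPPH1, the RNA of ribonuclease P (-4.74), FOSB (-3.75), PHLDA2 (-3.74), CA9, a hypoxia-induced carbonic anhydrase (-3.69), AIM1L (-3.66), ARHGAP33 (-3.60) and CCDC85B (-3.42). RPPH1 differed between the A549_NT libraries themselves, at 11.9 and 28.6 CPM. It is annotated as a ribozyme, and the libraries were prepared from poly(A) RNA, so its level is uncertain.

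AP-1 subunits fell in 6 of 7 cases and rose in 0, at a median log2 fold change of -1.44 beside 0.02 over all genes tested, although JUND and JUNB changed sign when GC content was corrected. FOSL1, a FOS-related subunit induced by RAS and ERK signalling (chromosome 11, 65892049 to 65900573, GRCh38), stood at 10.7 and 11.03 CPM in A549_SP600125, against 178 and 174 CPM in A549_NT. Its fold change was -4.02 ± 0.29 (adjusted p = 2.19e-07), and 86% of its sampled sequence windows were unique in the genome; its level is therefore uncertain. FOSB (chromosome 19, 45467995 to 45475179) stood at 21.2 and 18.6 CPM in A549_SP600125, against 255 and 279.9 CPM in A549_NT (-3.75 ± 0.15, adjusted p = 1.48e-09). For both genes the untreated libraries lay more than 10-fold above the treated ones, without overlap.

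JUN, the direct JNK substrate, stood at 46.9 and 36.5 CPM in A549_SP600125, against 119.9 and 124 CPM in A549_NT (-1.55 ± 0.13, adjusted p = 5e-07). FOSL2 stood at 83.9 and 80.6 CPM in A549_SP600125, against 219 and 226 CPM in A549_NT (-1.44 ± 0.10). FOS stood at 141 and 138 CPM in A549_SP600125, against 323 and 311 CPM in A549_NT (-1.19 ± 0.20, adjusted p = 0.000193). In these 3 genes the groups did not overlap, and the calls held with GC correction, at -1.18, -1.23 and -1.02. JUND stood at 81.7 and 86.4 CPM in A549_SP600125, against 154 and 141 CPM in A549_NT and fell (-0.81 ± 0.12), but with GC correction it was called higher, at 0.65. JUNB stood at 114 and 107 CPM in A549_SP600125, against 129 and 106 CPM in A549_NT, overlapping between the groups (-0.09 ± 0.14, not called), and with GC correction it was also called higher, at 0.92.

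**Figure D2:**
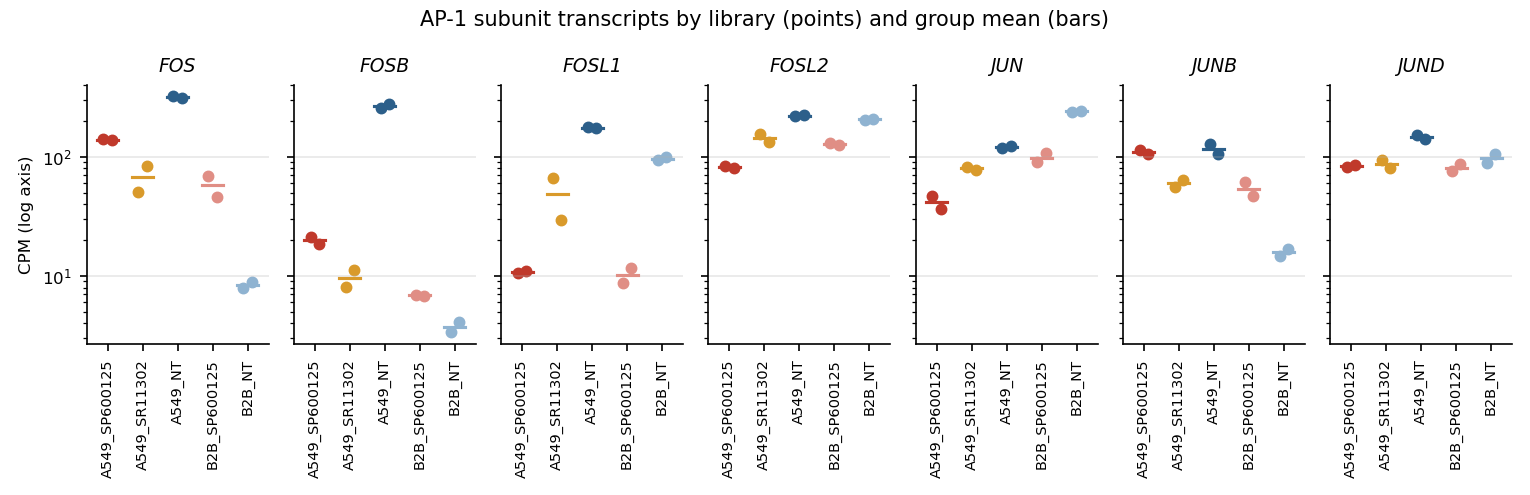
Levels of the 7 AP-1 subunit genes in CPM on a log axis in A549 and BEAS-2B libraries, with a point for each library and a bar at each group mean. FOSL1 and FOSB lie lowest relative to A549_NT among the 7 in A549_SP600125, whereas JUNB overlaps between A549_SP600125 and A549_NT, and the direction of JUNB and JUND turns when GC content is corrected.

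Genes of the JNK cascade itself changed in both directions: 3 of 20 rose and 8 fell (3 and 2 with GC correction), with a median of -0.11. MAPK8, which encodes JNK1, stood at 68.1 and 66.4 CPM in A549_SP600125, against 34.9 and 38.0 CPM in A549_NT (0.89 ± 0.12, adjusted p = 3.89e-05), and MAP3K7, the upstream kinase TAK1, stood at 94.8 and 94.8 CPM in A549_SP600125, against 52.7 and 53.6 CPM in A549_NT (0.83 ± 0.12). Both rose without overlap, and both calls held with GC correction (0.54 and 0.51). MAPK10, which encodes JNK3, was the other member that rose (1.51). Its call was lost without A549_NT replicate 1 (1.84), A549_NT replicate 2 (1.24) or A549_SP600125 replicate 2 (1.28). MAPK9, which encodes JNK2, was not called (-0.18 ± 0.10). Of the genes that fell, MAP3K5, the stress kinase ASK1, kept its call with GC correction (-1.15 ± 0.20, corrected -1.25). The calls of MAP3K11 (-1.49, corrected -0.33) and of the scaffolds MAPK8IP1, MAPK8IP2 and MAPK8IP3 (-0.93, -1.04 and -0.89, corrected 0.03, -0.19 and 0.08) did not.

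Of the MAP kinase phosphatases, which dephosphorylate JNK, p38 and ERK, 1 of 10 rose and 5 fell (1 and 3 with GC correction; 0 rose without A549_NT replicate 1, A549_SP600125 replicate 1 or A549_SP600125 replicate 2), with a median of -0.62. Besides DUSP8, the ERK-specific DUSP7 fell to 4.47 and 3.31 CPM in A549_SP600125, against 12.2 and 10.8 CPM in A549_NT (-1.56 ± 0.19), and DUSP16, which acts on JNK, to 99.02 and 95.5 CPM, against 149 and 161 CPM in A549_NT (-0.68 ± 0.10). DUSP1 and DUSP6, the phosphatases induced by stress and by ERK, were not called (-0.30 ± 0.11 and 0.27 ± 0.18). Of genes that report ERK output 2 of 13 rose and 5 fell (2 and 5 with GC correction; 1 rose in each fit without 1 library). Among them SPRY4 and SPRY2, inhibitors of receptor tyrosine kinase signalling, changed by -1.96 ± 0.15 and -0.999 ± 0.13, and the ephrin receptor EPHA2 stood at 108 and 109 CPM in A549_SP600125, against 335 and 311 CPM in A549_NT (-1.57 ± 0.12). A related receptor, EPHA4, rose to 7.004 and 7.31 CPM, against 2.22 and 2.50 CPM in A549_NT (1.60 ± 0.20).

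Immediate early genes, which cells transcribe within minutes of a mitogen or stress signal, were mostly lower: 1 of 18 rose and 13 fell (1 and 13 with GC correction), with a median of -0.91. NR4A1, an orphan nuclear receptor, stood at 73.5 and 68.7 CPM in A549_SP600125, against 359.8 and 308 CPM in A549_NT (-2.23 ± 0.14, adjusted p = 8.66e-08). ZFP36, which encodes a protein that destabilises cytokine messages, stood at 43.2 and 43.6 CPM in A549_SP600125, against 174 and 162 CPM in A549_NT (-1.95 ± 0.11). IER2 stood at 79.1 and 75.5 CPM in A549_SP600125, against 231 and 192 CPM in A549_NT (-1.45 ± 0.12), and KLF2, a zinc finger factor, at 17.0 and 15.6 CPM in A549_SP600125, against 52.6 and 46.4 CPM in A549_NT (-1.60 ± 0.19). None of these 4 genes had overlapping groups. EGR1, a zinc finger factor downstream of ERK, fell by less, to 249 and 217 CPM in A549_SP600125, against 516 and 479 CPM in A549_NT (-1.09 ± 0.16). EGR3 had 3 counts over both A549_SP600125 libraries, against 63 over both A549_NT libraries, a ratio of 0.0628 (95% exact counting interval 0.0126 to 0.192, which covers counting error only). IER5 was the member that rose (0.62 ± 0.11).

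Growth factor receptors and ligands were mixed. In the EGF receptor family 1 of 10 rose and 3 fell (2 and 3 with GC correction). HBEGF, a membrane-anchored ligand, stood at 13.1 and 11.4 CPM in A549_SP600125, against 5.22 and 4.35 CPM in A549_NT (1.35 ± 0.18), while the ligands EREG (-1.45 ± 0.24), AREG (-1.07 ± 0.14) and NRG1 (-0.61 ± 0.14) were lower. The receptor genes EGFR, ERBB2 and ERBB3 were not called (0.24, -0.13 and 0.06), though ERBB2 was called higher with GC correction (0.50). In the FGF family 1 of 10 rose and 4 fell (2 and 5 with GC correction; 0 rose without A549_SP600125 replicate 1). FGFR1, a receptor amplified in some lung cancers and one of 13 oncogenes that the study named, stood at 208 and 220.3 CPM in A549_SP600125, against 603 and 566 CPM in A549_NT (-1.45 ± 0.13, adjusted p = 1.28e-06), with both treated libraries below both untreated ones. In the insulin-like growth factor axis 3 of 12 rose and 5 fell (4 and 3 with GC correction). The binding protein genes IGFBP2 (-1.87 ± 0.14) and IGFBP6 (-1.48 ± 0.14, corrected -0.49 and no longer called) were lower, and the insulin receptor gene INSR was higher (0.75 ± 0.14). IGFBP5 had 79 counts over the A549_SP600125 libraries and 2 over the A549_NT libraries, a ratio of 52.1 (counting interval 13.9 to 438).

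The 13 oncogenes were named by the study with its results on these libraries known, which makes their count no independent evidence of direction: 1 of 13 rose and 4 fell (1 and 4 with GC correction). KLF6, a zinc finger factor, stood at 104 and 93.5 CPM in A549_SP600125, against 190.0 and 189 CPM in A549_NT (-0.94 ± 0.12), and GMPS, an enzyme of guanine nucleotide synthesis, at 118 and 119 CPM in A549_SP600125, against 172 and 172 CPM in A549_NT (-0.54 ± 0.11). POU5F1, the pluripotency factor OCT4, changed by -1.50 ± 0.25, but 33% of its windows were unique and its value is uncertain. GOLGA5, a Golgi tethering protein, rose to 143 and 140.4 CPM, against 58.0 and 64.3 CPM in A549_NT (1.21 ± 0.11). CCND1, which encodes cyclin D1, and SRC were not called (-0.34 ± 0.10 and -0.36 ± 0.11).

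Among p53 targets 23 of 28 rose and 1 fell (25 and 0 with GC correction), with a median of 1.24. The p53 protein activates genes of arrest, repair and death after DNA damage or other stress. CDKN1A, the CDK inhibitor p21, stood at 277 and 291 CPM in A549_SP600125, against 117 and 109.6 CPM in A549_NT (1.33 ± 0.11, adjusted p = 4.06e-07). MDM2, the ligase that degrades p53, stood at 519 and 485 CPM in A549_SP600125, against 204 and 239 CPM in A549_NT (1.18 ± 0.17), though 94% of its windows were unique. SESN1, a sestrin that restrains the growth kinase mTORC1, stood at 51.0 and 42.9 CPM in A549_SP600125, against 6.67 and 7.70 CPM in A549_NT (2.705 ± 0.15). In all 3 genes the treated libraries lay above the untreated ones. BTG2, an antiproliferative factor, stood at 64.0 and 54.2 CPM in A549_SP600125, against 11.3 and 10.6 CPM in A549_NT (2.43 ± 0.14), and RRM2B, a p53-induced subunit of ribonucleotide reductase, at 331 and 315 CPM in A549_SP600125, against 53.5 and 72.3 CPM in A549_NT (2.36 ± 0.21). The death receptor genes FAS and TNFRSF10B rose by 1.89 and 1.05. The repair gene XPC rose by 1.36, and TIGAR, which lowers glycolytic flux, by 1.62. BAX and GDF15, also p53 targets, were not called (0.33 ± 0.15 and 0.22 ± 0.12), though both were called higher with GC correction (0.99 and 1.05). PLK3 was the member that fell (-0.58 ± 0.16). Its call was lost without A549_NT replicate 1 or with GC correction (0.09).

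FOXO factors, which insulin and AKT signalling hold in the cytoplasm, activate genes of fasting, arrest and death. Of the FOXO targets 21 of 27 rose and 1 fell (20 and 0 with GC correction), with a median of 1.02. Besides KLHL24 and CCNG2, FBXO32, the ubiquitin ligase atrogin-1, stood at 11.9 and 12.2 CPM in A549_SP600125, against 1.61 and 2.12 CPM in A549_NT (2.68 ± 0.21). PIK3IP1, an inhibitor of phosphoinositide 3-kinase, stood at 5.22 and 6.13 CPM in A549_SP600125, against 0.5 and 1.06 CPM in A549_NT (2.84 ± 0.51), and YPEL3 at 6.71 and 5.93 CPM in A549_SP600125, against 1.11 and 0.637 CPM in A549_NT (2.85 ± 0.27). The 3 genes are of low abundance in A549_NT but the groups did not overlap. SESN3 rose by 2.61, KLF9 by 2.26 and the MYC antagonist MXI1 by 1.98. FOXO1 and FOXO4 rose as well (1.02 and 1.74). IRS2, an insulin receptor adaptor, was the member that fell (-0.63 ± 0.12), and it was not called with GC correction (-0.12).

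**Figure D3:**
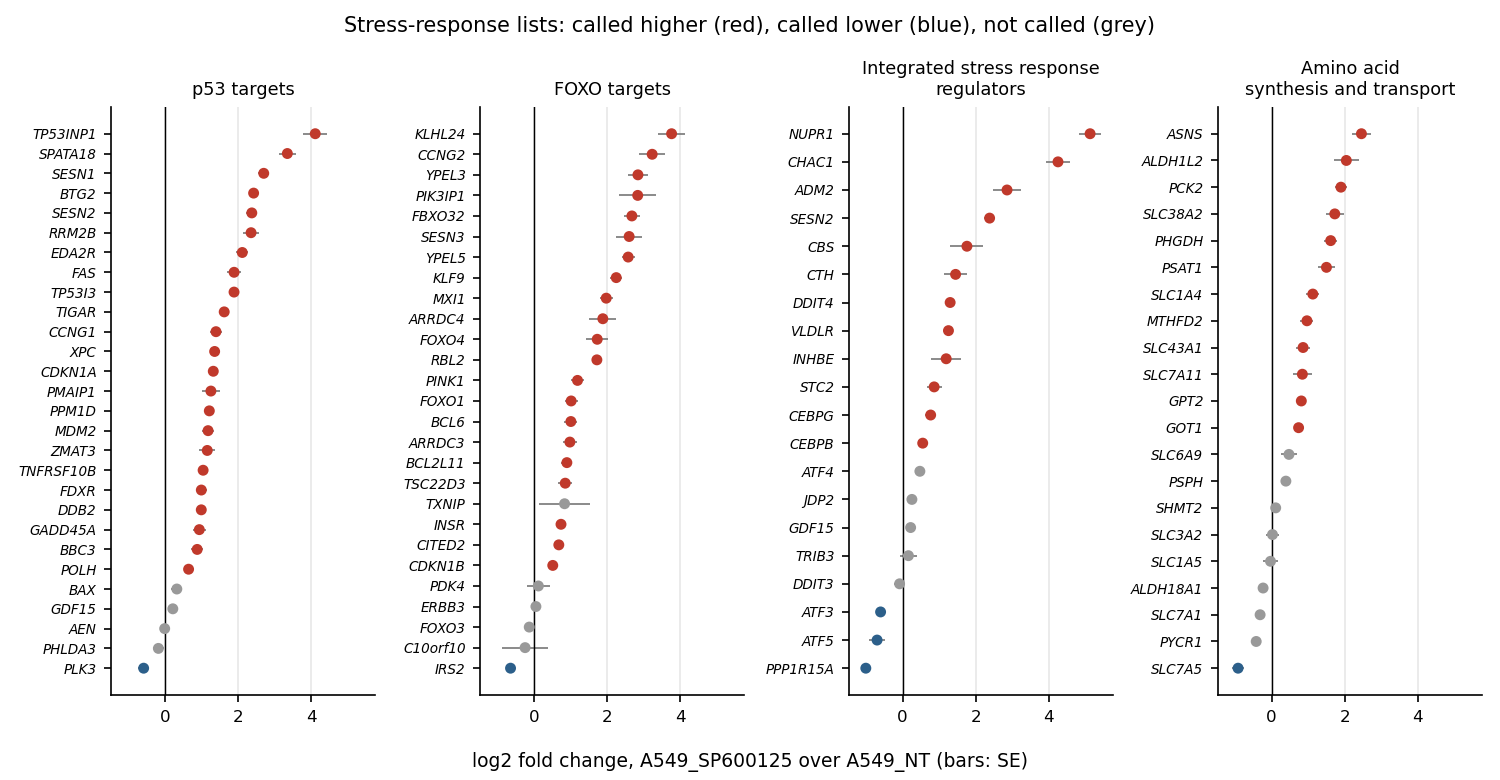
Log2 fold changes of A549_SP600125 over A549_NT (x axis, bars show the SE) for the tested members of 4 lists, with called members in red (higher) or blue (lower) and the others in grey. Most p53 targets, FOXO targets and amino acid genes lie right of 0, with NUPR1 at 5.13 and TP53INP1 at 4.11, whereas ATF3, ATF5 and PPP1R15A lie left of 0 (ATF5 and PPP1R15A are not called with GC correction).

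Genes of the integrated stress response, in which phosphorylation of the translation factor eIF2 raises the factor ATF4, were mostly higher: 12 of 20 rose and 3 fell (14 and 1 with GC correction), with a median of 0.81. NUPR1, a small stress-induced chromatin protein (chromosome 16, 28532708 to 28539008, GRCh38), stood at 70.2 and 80.1 CPM in A549_SP600125, against 2.39 and 1.91 CPM in A549_NT (5.13 ± 0.30, adjusted p = 4.5e-08). CHAC1, an enzyme that degrades glutathione, stood at 8.12 and 8.62 CPM in A549_SP600125, against 0.5 and 0.372 CPM in A549_NT (4.25 ± 0.34), and DDIT4, an inhibitor of mTORC1, at 423 and 423 CPM in A549_SP600125, against 179 and 164 CPM in A549_NT (1.30 ± 0.13). These groups did not overlap. ATF4 itself was not called by the fold minimum (0.47 ± 0.11; 0.67 and called higher with GC correction), nor was DDIT3, the factor CHOP (-0.08 ± 0.15). The 3 members that fell were ATF3 (-0.60 ± 0.14), ATF5 (-0.70 ± 0.21) and PPP1R15A, the phosphatase subunit GADD34 (-1.01 ± 0.13). The last 2 were not called with GC correction (-0.11 and -0.47), and ATF5 lost its call in 3 of the 4 fits without a library.

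Amino acid synthesis and transport genes, many of them ATF4 targets, were higher in most cases: 12 of 21 rose and 1 fell (13 and 0 with GC correction; 2 fell without A549_NT replicate 2), with a median of 0.81. ASNS, the asparagine synthetase (chromosome 7, 97851677 to 97872542, GRCh38), stood at 299 and 290.0 CPM in A549_SP600125, against 54.0 and 53.2 CPM in A549_NT (2.46 ± 0.26, adjusted p = 4.14e-06). PHGDH, the first enzyme of serine synthesis, stood at 98.2 and 98.5 CPM in A549_SP600125, against 34.9 and 29.2 CPM in A549_NT (1.62 ± 0.18). PCK2, the mitochondrial phosphoenolpyruvate carboxykinase, stood at 115 and 123 CPM in A549_SP600125, against 33.4 and 30.3 CPM in A549_NT (1.90 ± 0.17), and the glutamine carrier SLC38A2 at 901 and 955 CPM in A549_SP600125, against 255 and 304 CPM in A549_NT (1.73 ± 0.25). All 4 genes had higher levels in both treated libraries. SLC7A5, the large neutral amino acid carrier, fell (-0.91 ± 0.17), and was not called with GC correction (-0.22). In the list of cytosolic aminoacyl-tRNA synthetases and the tRNA exporter gene XPOT, 11 of 16 rose and 2 fell (5 and 2 of the 13 with a GC value with GC correction). AARS, the alanine enzyme, stood at 521 and 535 CPM in A549_SP600125, against 229 and 219 CPM in A549_NT (1.24 ± 0.11), while VARS, the valine enzyme, stood at 87.9 and 89.7 CPM in A549_SP600125, against 232 and 206 CPM in A549_NT (-1.30 ± 0.15).

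ATF4 binds with C/EBP proteins to a composite element that was searched here as TGATGNAAN on both strands of the 250 bases before each gene start (RefSeq, GRCh38.p14). These letters were found in 2 of 15 promoters of amino acid genes (13.3%), 2 of 18 of stress response genes (11.1%) and 2 of 11 of tRNA synthetases (18.2%), against 185 of 12449 promoters of the genes tested (1.49%) and 867 of all 27305 RefSeq promoters (3.18%). The share was also 2 of 13 in the BCL2 family (15.4%), and the letters are not particular to genes that rose: BCL2A1 and ATF3, which hold them, fell. The sequences of 3 genes that rose, picked after their values were seen, are shown with the matching letters in capitals, each on the strand of its gene, 1 from each of the 3 lists. In CHAC1 and AARS the match is on the opposite strand and reads as its reverse complement.
ASNS: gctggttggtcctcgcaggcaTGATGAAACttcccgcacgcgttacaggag
CHAC1: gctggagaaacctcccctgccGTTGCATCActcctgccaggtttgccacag
AARS: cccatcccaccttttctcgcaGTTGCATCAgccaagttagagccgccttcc
The windows are chr7:97872447-97872497 (minus strand) for ASNS, chr15:40953240-40953290 (plus strand) for CHAC1 and chr16:70289665-70289715 (minus strand) for AARS, and the matches begin 68, 210 and 188 bases before the gene start. None of the 3 overlaps a match to the AP-1 or cell cycle letters searched elsewhere in this comparison. A match of letters is a description and does not show that a factor bound there.

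Among chaperones and regulators of the endoplasmic reticulum 4 of 20 rose and 4 fell (4 and 3 with GC correction). XBP1, a factor of the unfolded protein response, stood at 161 and 169 CPM in A549_SP600125, against 61.2 and 55.2 CPM in A549_NT (1.501 ± 0.14), and SDF2L1 fell (-1.96 ± 0.23). Of the cytosolic heat shock genes 1 of 16 rose and 8 fell (1 and 8 with GC correction), with a median of -0.47. HSPB8 and HSPB1, small heat shock proteins, changed by -1.73 ± 0.33 and -1.68 ± 0.17, and HSP90AA1, the inducible HSP90, stood at 1372 and 1357 CPM in A549_SP600125, against 3768 and 3334 CPM in A549_NT (-1.38 ± 0.13). For HSPB1 and HSP90AA1 83% and 80% of windows were unique, so their levels are uncertain.

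Among DNA replication genes the called members were all lower in the fit of all 12 libraries: 0 of 42 rose and 30 fell (0 and 31 with GC correction; 1 rose without A549_NT replicate 1 or A549_SP600125 replicate 2), with a median of -0.81. POLD1, the catalytic subunit of polymerase delta, stood at 24.3 and 26.1 CPM in A549_SP600125, against 161 and 149 CPM in A549_NT (-2.62 ± 0.19, adjusted p = 1.92e-07). CLSPN, which encodes the checkpoint mediator claspin, stood at 31.8 and 34.3 CPM in A549_SP600125, against 136 and 134 CPM in A549_NT (-2.03 ± 0.12), and CDT1, which loads the replicative helicase, at 15.8 and 16.5 CPM in A549_SP600125, against 78.1 and 73.6 CPM in A549_NT (-2.23 ± 0.18). Both treated libraries lay below both untreated ones in each gene. GINS2, a subunit of that helicase, fell to 27.5 and 27.9 CPM, against 78.0 and 69.2 CPM in A549_NT (-1.41 ± 0.16). The helicase genes MCM2, MCM3, MCM4, MCM5, MCM6 and MCM7 fell, with log2 fold changes of -1.03, -0.53, -1.17, -1.22, -0.91 and -1.02, although MCM3 lost its call with GC correction (-0.42) and without A549_NT replicate 1 (-0.48). PCNA, the sliding clamp and also a p53 target, was not called (0.47 ± 0.11) and is the member that rose without A549_NT replicate 1 or A549_SP600125 replicate 2. UHRF1, which maintains DNA methylation, changed by -3.53 ± 0.18, with 46% of its windows unique.

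Of the enzymes of nucleotide supply 0 of 22 rose and 13 fell (0 and 14 with GC correction). RRM2, the S-phase subunit of ribonucleotide reductase, stood at 100.3 and 90.6 CPM in A549_SP600125, against 606 and 634 CPM in A549_NT (-2.70 ± 0.15), and DCTPP1, a nucleotide pyrophosphatase, at 32.0 and 32.5 CPM in A549_SP600125, against 115 and 91.9 CPM in A549_NT (-1.68 ± 0.15). Among homologous recombination and Fanconi genes 2 of 28 rose and 18 fell (1 and 19 with GC correction; 1 rose without A549_NT replicate 2). FANCA, a subunit of the Fanconi core complex, stood at 23.5 and 21.6 CPM in A549_SP600125, against 92.0 and 88.8 CPM in A549_NT (-2.003 ± 0.16). Both groups of libraries were apart in each of these 3 genes. Of the G1 regulators 4 of 21 rose and 8 fell (4 and 8 with GC correction; 5 fell without A549_NT replicate 2). The falls include CDKN2A, counted in A549_NT replicate 2 alone among the 4 libraries, whose call is lost in 3 of the 4 fits without a library. E2F1 and E2F2, activators of S-phase genes, changed by -1.69 ± 0.14 and -2.13 ± 0.15, and RBL2, the pocket protein p130 of resting cells, stood at 143 and 134 CPM in A549_SP600125, against 37.5 and 45.9 CPM in A549_NT (1.73 ± 0.13).

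Genes of mitosis were also mostly lower: 1 of 47 rose and 25 fell (1 and 36 with GC correction), with a median of -0.55. CDC20, the activator of the anaphase-promoting complex, stood at 50.6 and 53.3 CPM in A549_SP600125, against 197 and 178 CPM in A549_NT (-1.85 ± 0.21, adjusted p = 8.62e-06). KIF18B, a kinesin, stood at 26.6 and 27.3 CPM in A549_SP600125, against 132 and 128 CPM in A549_NT (-2.27 ± 0.17), and MYBL2, a factor of late cell cycle genes, at 83.7 and 81.5 CPM in A549_SP600125, against 299 and 273 CPM in A549_NT (-1.79 ± 0.18). The kinase gene PLK1 changed by -1.31 ± 0.18 and the proliferation marker MKI67 by -1.46 ± 0.14. CCNB1, CENPF and TTK, which encode cyclin B1, a kinetochore protein and a checkpoint kinase, were not called (-0.28 ± 0.15, -0.17 ± 0.13 and -0.01 ± 0.17), though CCNB1 was called lower with GC correction (-0.55). TOP2A, the topoisomerase of dividing cells, was the member that rose (0.52 ± 0.13). Its call was lost without A549_SP600125 replicate 1 (0.44), without A549_NT replicate 1 (0.40) and with GC correction (0.20).

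Many mitotic promoters hold the cell cycle homology region, through which the DREAM complex represses them in resting cells and MYB and FOXM1 complexes activate them in dividing cells. Its letters TTTGAA, searched on both strands of the 250 bases before the gene start, were found in 20 of 41 mitotic promoters (48.8%) and 0 of 36 DNA replication promoters, against 1099 of 12449 promoters of the genes tested (8.83%) and 3704 of all 27305 RefSeq promoters (13.6%). Mitotic genes with the letters fell in 12 of 20 cases and rose in 1 (median -0.59), and those without fell in 10 of 21 and rose in 0 (median -0.47), values that were not tested against each other. The windows of 4 genes that fell are shown with the matching letters in capitals, since they place the element close to the start of the gene.
CDC20: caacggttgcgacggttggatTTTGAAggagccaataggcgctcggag
CCNF: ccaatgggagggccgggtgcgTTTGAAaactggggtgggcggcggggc
PLK1: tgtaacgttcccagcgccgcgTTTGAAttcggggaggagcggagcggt
ESPL1: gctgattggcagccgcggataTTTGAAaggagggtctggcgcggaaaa
They lie at chr1:43358895-43358942, chr16:2429341-2429388, chr16:23678839-23678886 and chr12:53268247-53268294 (GRCh38.p14, all on the plus strand), and the matches begin 65, 85, 29 and 31 bases before the start. CDC20 holds another match further from its start. CCNF encodes cyclin F and ESPL1 the protease separase, and they changed by -1.75 ± 0.16 and -1.73 ± 0.14. None of the 4 matches overlaps a match to the other 2 motifs.

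**Figure D4:**
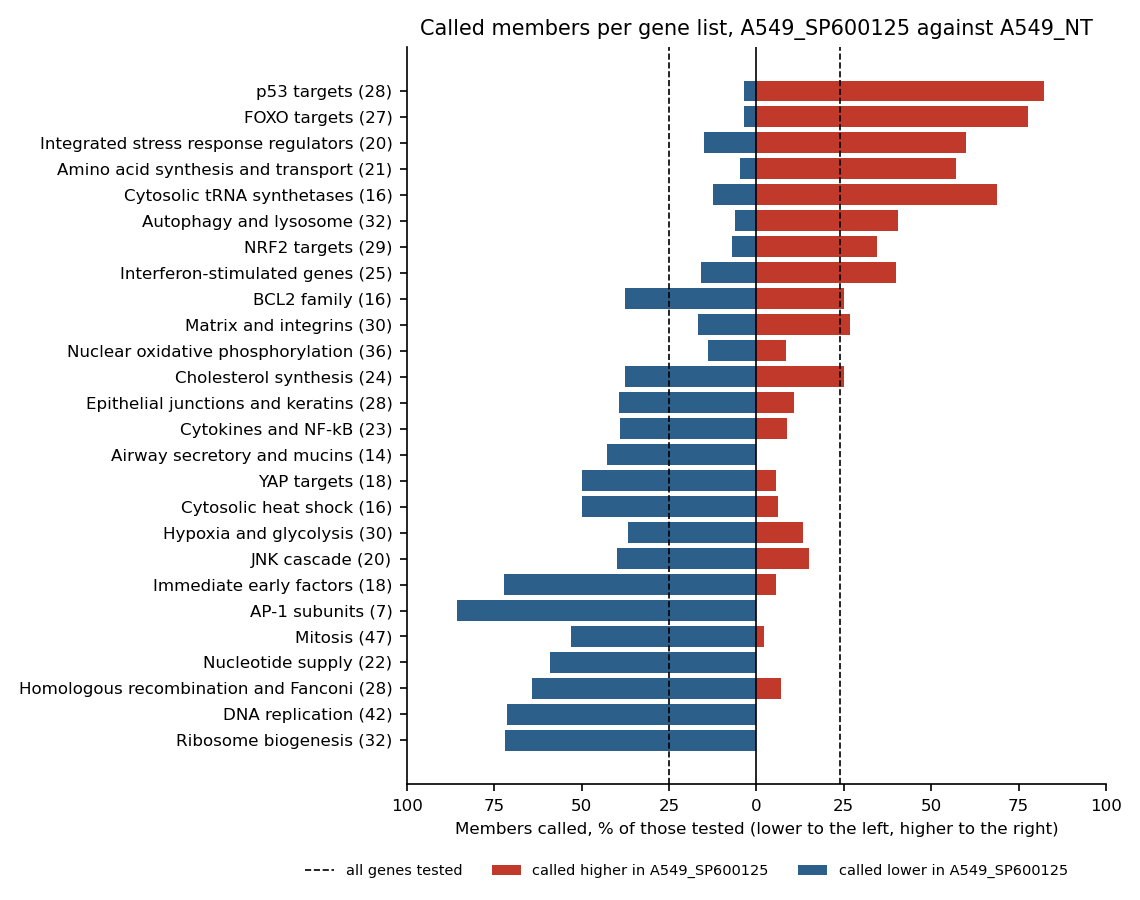
Share of the tested members (number in brackets) of 26 gene lists called higher (right, red) or lower (left, blue) in A549_SP600125 against A549_NT, with dashed lines at the shares over all 16373 genes tested (23.9% and 25.0%). The p53 list has 23 of 28 members on the right and the DNA replication list 30 of 42 on the left, while oxidative phosphorylation stays under both lines, and the JNK cascade has 8 members on the left, of which GC correction leaves 2 called lower.

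Of the ribosome biogenesis genes 0 of 32 rose and 23 fell (0 and 20 with GC correction), with a median of -0.63. BOP1 and RRP9, processing factors of ribosomal RNA, stood at 61.2 and 61.0 CPM in A549_SP600125, against 276 and 237 CPM in A549_NT (-2.07 ± 0.20) and at 14.8 and 16.7 CPM in A549_SP600125, against 53.02 and 48.7 CPM in A549_NT (-1.69 ± 0.19). NOP16 and URB2, which act in the same process, changed by -1.34 ± 0.18 and -1.34 ± 0.15. MYC, which drives many of these genes, stood at 138 and 122 CPM in A549_SP600125, against 250.1 and 243 CPM in A549_NT (-0.92 ± 0.15), with both treated libraries below both untreated ones. Within the MYC network 4 of 13 rose and 4 fell (4 and 3 with GC correction). The antagonists MXI1 and MXD4 and the relative MYCL were higher (1.98, 1.47 and 1.95), and the antagonists MXD3 and MNT were lower (-1.71 and -1.24). Among host genes of small nucleolar RNAs 5 of 11 rose and 3 fell (5 and 2 with GC correction). Of nuclear genes for oxidative phosphorylation 3 of 36 rose and 5 fell (4 and 3 with GC correction), with a median of 0.04, both under the share over all genes.

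Among hypoxia and glycolysis genes 4 of 30 rose and 11 fell (5 and 7 with GC correction). CA9 stood at 1.94 and 1.93 CPM in A549_SP600125, against 27.0 and 23.05 CPM in A549_NT, and ALDOC, a brain-type aldolase, at 0.671 and 0.689 CPM in A549_SP600125, against 3.17 and 3.45 CPM in A549_NT (-2.27 ± 0.30). ALDOA, the abundant aldolase, stood at 888 and 922 CPM in A549_SP600125, against 1852 and 1587 CPM in A549_NT (-0.93 ± 0.15), but was not called with GC correction (-0.28). The 4 members that rose were BNIP3L, a mitophagy receptor, at 221 and 205 CPM in A549_SP600125, against 54.2 and 58.1 CPM in A549_NT (1.92 ± 0.22), the stress gene NDRG1 (1.60 ± 0.14), the histone demethylase gene KDM3A (0.85 ± 0.11) and the hexokinase gene HK1 (0.74 ± 0.09).

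Among autophagy and lysosome genes 13 of 32 rose and 2 fell (16 and 0 with GC correction), with a median of 0.44. GABARAPL1, an autophagosome protein, stood at 107 and 115 CPM in A549_SP600125, against 27.3 and 23.9 CPM in A549_NT (2.11 ± 0.14, adjusted p = 9.11e-08). WIPI1, which acts in autophagosome formation, stood at 11.3 and 13.6 CPM in A549_SP600125, against 4.72 and 4.30 CPM in A549_NT (1.47 ± 0.19). Treated libraries were higher in both. TFEB, a master regulator of lysosomal genes, was lower (-1.37 ± 0.25), though not with GC correction (-0.38). In the BCL2 family 4 of 16 rose and 6 fell (6 and 4 with GC correction; 3 fell without A549_SP600125 replicate 1). The share that rose lies near that over all genes tested (23.9%). The 4 that rose without GC correction encode BH3-only proteins, which promote apoptosis. BMF stood at 11.9 and 12.3 CPM in A549_SP600125, against 0.834 and 0.796 CPM in A549_NT (3.89 ± 0.26). The others were PMAIP1 (1.26 ± 0.25), BCL2L11 (0.91 ± 0.15) and BBC3 (0.89 ± 0.17). Other BH3-only genes, BIK, BAD and BID, fell (-1.81, -0.73 and -0.60). Their calls were lost without A549_SP600125 replicate 1 (-1.36, -0.57 and -0.50). BCL2A1, an antiapoptotic member, fell as well (-3.51 ± 0.39).

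Of the targets of NRF2, a factor of the oxidative stress response, 10 of 29 rose and 2 fell (7 and 1 with GC correction; 1 fell without A549_NT replicate 1, A549_SP600125 replicate 1 or A549_SP600125 replicate 2). TXNRD1, the thioredoxin reductase, stood at 3895 and 3794 CPM in A549_SP600125, against 2189.6 and 2433 CPM in A549_NT (0.73 ± 0.13), and EPHX1, an epoxide hydrolase, at 685 and 789 CPM in A549_SP600125, against 383 and 326 CPM in A549_NT (1.06 ± 0.12). PIR stood at 60.5 and 59.1 CPM in A549_SP600125, against 19.8 and 15.8 CPM in A549_NT (1.75 ± 0.15), and NFE2L2, the gene of NRF2 itself, at 298 and 291 CPM in A549_SP600125, against 142 and 155 CPM in A549_NT (0.99 ± 0.09). All 4 had higher levels in both treated libraries, and OSGIN1, an NRF2 target, was lower (-1.43 ± 0.23; corrected -0.44, not called). Among genes of the aryl hydrocarbon receptor, a sensor of planar aromatic compounds, 5 of 10 rose and 1 fell (4 and 1 with GC correction; 0 fell without A549_SP600125 replicate 2). They included the oxidase gene CYP1B1, at 321 and 330.1 CPM in A549_SP600125, against 149 and 156 CPM in A549_NT (1.09 ± 0.11), and the repressor gene AHRR (0.87 ± 0.15).

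Genes of lipid synthesis changed in both directions. FASN, the fatty acid synthase, stood at 86.0 and 89.7 CPM in A549_SP600125, against 807 and 706 CPM in A549_NT (-3.11 ± 0.17, adjusted p = 2.46e-08). Its regulator SREBF1 was lower (-1.33 ± 0.13), though not called with GC correction (-0.47), and FADS2, a desaturase, stood at 181 and 194 CPM in A549_SP600125, against 444 and 388 CPM in A549_NT (-1.15 ± 0.10). In the whole fatty acid list 1 of 14 rose and 5 fell (4 and 4 with GC correction; 2 rose without A549_NT replicate 1 or A549_SP600125 replicate 1). Among cholesterol synthesis genes 6 of 24 rose and 9 fell (5 and 6 with GC correction; 3 rose without A549_NT replicate 2 or A549_SP600125 replicate 1). EBP and DHCR7, enzymes late in the pathway, were lower (-1.60 ± 0.14 and -1.05 ± 0.13), and FDFT1, which makes squalene, was higher (0.82 ± 0.10).

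Mucin and epithelial genes included some of the largest changes in level. MUC5B, a gel-forming airway mucin (chromosome 11, 1223066 to 1262172, GRCh38), stood at 27.9 and 28.8 CPM in A549_SP600125, against 793 and 752 CPM in A549_NT (-4.77 ± 0.44, adjusted p = 1.34e-06), and MUC5AC, encoded beside it, at 57.9 and 48.3 CPM in A549_SP600125, against 609.6 and 632 CPM in A549_NT (-3.55 ± 0.40). Their treated and untreated libraries did not overlap, but 66% and 81% of windows were unique, so the levels are uncertain. Across airway secretory genes 0 of 14 rose and 6 fell (1 and 4 with GC correction). SPDEF, a factor of goblet cells, was lower (-1.45 ± 0.26), though not with GC correction (-0.47). Of 15 alveolar genes 9 passed the filter on low counts, of which 2 rose and 1 fell (2 and 1 with GC correction). SFTPD, surfactant protein D, stood at 3.43 and 4.27 CPM in A549_SP600125, against 0.5 and 0.372 CPM in A549_NT (3.13 ± 0.51), while SFTPC, the defining gene of alveolar type 2 cells, did not pass the filter.

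Among epithelial junction and keratin genes 3 of 28 rose and 11 fell (3 and 8 with GC correction). CDH1, the epithelial cadherin (chromosome 16, 68737292 to 68835537, GRCh38), stood at 438 and 380.5 CPM in A549_SP600125, against 122 and 128 CPM in A549_NT (1.71 ± 0.18, adjusted p = 4.83e-06), and JUP, the junction protein plakoglobin, at 295 and 349.9 CPM in A549_SP600125, against 169 and 145 CPM in A549_NT (1.04 ± 0.14). Against these, the desmosome gene PKP3 stood at 20.3 and 21.7 CPM in A549_SP600125, against 147 and 129 CPM in A549_NT (-2.72 ± 0.14), and CLDN2, a claudin of leaky epithelia, at 51.5 and 55.6 CPM in A549_SP600125, against 189 and 176 CPM in A549_NT (-1.77 ± 0.27). The groups did not overlap in any of these 4. ESRP2, an epithelial splicing factor, had 1 count over both A549_SP600125 libraries, against 62 over both A549_NT libraries (ratio 0.0213, counting interval 5.3e-04 to 0.123). Among mesenchymal genes 4 of 14 rose and 3 fell (3 and 2 with GC correction; 2 rose without A549_NT replicate 1 or A549_SP600125 replicate 1). CDH2, the neural cadherin, was higher (0.71 ± 0.15, and 0.49 and not called with GC correction). Repressors of CDH1 moved both ways. SNAI1 was lower (-0.85 ± 0.18, and -0.35 and not called with GC correction), while ZEB1 and ZEB2 were higher (0.603 and 0.596). The calls of ZEB1 and ZEB2 were lost without A549_NT replicate 1 (0.47 and 0.37) or A549_SP600125 replicate 1 (0.49 and 0.52).

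Among proteases and inhibitors, several of them known AP-1 targets, 4 of 17 rose and 5 fell (5 and 4 with GC correction). MMP1, the interstitial collagenase (chromosome 11, 102789401 to 102798160, GRCh38), had 327 counts over the A549_SP600125 libraries and 2 over the A549_NT libraries, a ratio of 216 (counting interval 59.2 to 1788). MMP2, a gelatinase, stood at 7.004 and 7.93 CPM in A549_SP600125, against 0.611 and 0.319 CPM in A549_NT (3.997 ± 0.26). In the other direction, PLAUR, the urokinase receptor, stood at 10.1 and 12.96 CPM in A549_SP600125, against 44.9 and 39.4 CPM in A549_NT (-1.87 ± 0.16). The inhibitor gene TIMP1 stood at 23.2 and 24.5 CPM in A549_SP600125, against 75.5 and 61.8 CPM in A549_NT (-1.52 ± 0.16), and MMP7, the protease matrilysin, at 2.91 and 3.93 CPM in A549_SP600125, against 18.6 and 20.5 CPM in A549_NT (-2.51 ± 0.32). The groups did not overlap in any of these 5 genes, but the shares of the list called higher and lower lie near those of all genes tested (23.9% and 25.0%). The AP-1 letters TGANTCA were found in 518 of 12449 promoters of the genes tested (4.16%), 1801 of all 27305 RefSeq promoters (6.60%), 0 of 6 AP-1 subunit promoters and 4 of 11 promoters of this list (36.4%). The 4 are PLAUR and MMP7, which fell, and SERPINB2 and SERPINB5, which were not called, and the letters also stand in the promoters of KLHL24, FAS and BBC3, which rose. Only 11 of the 17 members tested had a promoter sequence to search, so other called members may hold the letters too. The share was also 3 of 9 in the airway secretory list (33.3%). PLAUR and MMP7, picked after their values were seen, are shown as the called genes that hold them among the 11 searched. The matching letters, a palindrome around its central base, are in capitals.
PLAUR: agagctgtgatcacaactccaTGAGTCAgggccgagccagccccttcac
MMP7: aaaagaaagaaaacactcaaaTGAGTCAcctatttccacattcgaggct
These windows are chr19:43670328-43670376 and chr11:102530787-102530835 (GRCh38.p14, both on the minus strand), and the matches begin 186 and 67 bases before the start. Neither overlaps a match to the other 2 motifs.

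Among matrix and integrin genes 8 of 30 rose and 5 fell (12 and 4 with GC correction; 3 fell without A549_NT replicate 1 or A549_SP600125 replicate 2). ITGAV, the integrin subunit alpha V, stood at 724 and 719 CPM in A549_SP600125, against 234 and 345 CPM in A549_NT (1.32 ± 0.22), and its partner ITGB8 at 9.16 and 8.41 CPM in A549_SP600125, against 1.39 and 2.18 CPM in A549_NT (2.29 ± 0.35). ITGB4, the hemidesmosome integrin, stood at 110.1 and 99.9 CPM in A549_SP600125, against 398 and 356 CPM in A549_NT (-1.84 ± 0.11). LAMA5, a laminin chain, stood at 429 and 427 CPM in A549_SP600125, against 1150.4 and 1018 CPM in A549_NT (-1.34 ± 0.12), but was not called with GC correction (-0.20). Of the genes around YAP, a coactivator that responds to cell shape and density, 1 of 18 rose and 9 fell (1 and 7 with GC correction; 3 rose without A549_NT replicate 2). Those that fell include F3, the tissue factor (-2.31 ± 0.19), and TEAD4, a DNA-binding partner of YAP (-1.29 ± 0.17). YAP1 itself rose (0.83 ± 0.18).

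Among cytokine and NF-kB genes 2 of 23 rose and 9 fell (3 and 12 with GC correction; 1 rose without A549_NT replicate 1 or A549_SP600125 replicate 2). The falls numbered 5 without A549_SP600125 replicate 1 and without A549_NT replicate 1, and 6 without A549_NT replicate 2. CCL2, a monocyte chemokine, stood at 7.38 and 10.4 CPM in A549_SP600125, against 67.1 and 64.6 CPM in A549_NT (-2.88 ± 0.20, adjusted p = 1.47e-07). LIF, a cytokine of the interleukin 6 family, stood at 94.5 and 91.1 CPM in A549_SP600125, against 275 and 262 CPM in A549_NT (-1.53 ± 0.11), and IL11, of the same family, at 5.44 and 3.10 CPM in A549_SP600125, against 20.7 and 21.4 CPM in A549_NT (-2.31 ± 0.23). Both treated libraries were lower in each. NFKBIA, the NF-kB inhibitor, rose to 106 and 109.6 CPM, against 68.5 and 63.8 CPM in A549_NT (0.70 ± 0.11). IL6 itself, unlike LIF and IL11, was called higher (3.44). That call was lost without A549_NT replicate 1 (2.61) or A549_SP600125 replicate 2 (2.215). Of the interferon-stimulated genes 10 of 25 rose and 4 fell (8 and 4 with GC correction). IFIT2 stood at 3.20 and 4.34 CPM in A549_SP600125, against 0.278 and 0.69 CPM in A549_NT (2.94 ± 0.40) and IFIH1, a sensor of double-stranded RNA, at 8.05 and 5.93 CPM in A549_SP600125, against 2.33 and 2.92 CPM in A549_NT (1.40 ± 0.30), while IRF7, an interferon regulatory factor, fell to 0.671 and 0.896 CPM, against 9.06 and 9.72 CPM in A549_NT (-3.57 ± 0.32).

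Of the clock genes 4 of 18 rose and 4 fell (6 and 3 with GC correction), with PER2, a repressor of the clock, at -1.12 ± 0.12 and the activator ARNTL at 1.01 ± 0.16. Of the clustered histone genes 5 of 14 rose and 4 fell (6 and 3 of the 12 with a GC value with GC correction; 2 fell without A549_NT replicate 2, A549_SP600125 replicate 1 or A549_SP600125 replicate 2). The linker histone gene HIST1H1C stood at 30.8 and 41.2 CPM in A549_SP600125, against 14.3 and 13.1 CPM in A549_NT (1.40 ± 0.17). The libraries were prepared from poly(A) RNA, so the levels of histone RNA without a poly(A) tail are uncertain. Of the nuclear long noncoding RNAs 2 of 8 rose and 4 fell (1 and 3 with GC correction). KCNQ1OT1, an imprinted antisense transcript, stood at 9.39 and 8.55 CPM in A549_SP600125, against 67.2 and 84.4 CPM in A549_NT (-3.08 ± 0.16), and MALAT1, a nuclear speckle RNA, at 4149 and 4012 CPM in A549_SP600125, against 6876 and 7377 CPM in A549_NT (-0.80 ± 0.17). Whether counting used the strand is not given in the sources used here, so reads of KCNQ1OT1 and of its host gene cannot be told apart.

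Markers of other cell types were low. The 9 leukocyte markers summed to 7.08 and 7.03 CPM in A549_SP600125, against 54.0 and 49.3 CPM in A549_NT, most of it in A549_NT from CD68, a lysosomal glycoprotein that stood at 3.35 and 3.52 CPM in A549_SP600125, against 47.9 and 43.8 CPM in A549_NT (-3.73 ± 0.20). The leukocyte genes PTPRC, CD3E, CD3D, MS4A1 and LYZ stayed under the count filter. The 6 endothelial markers summed to 18.4 and 17.2 CPM in A549_SP600125, against 1.501 and 1.65 CPM in A549_NT, with 5 of 6 called higher and CLDN5 called lower, a call lost in each fit without a library. PECAM1 stood at 7.08 and 6.27 CPM in A549_SP600125, against 0.0556 and 0.212 CPM in A549_NT, and VWF had 142 counts over the A549_SP600125 libraries and 2 over the A549_NT libraries (ratio 93.6, counting interval 25.4 to 780.5). The 7 fibroblast markers summed to 4.10 and 4.96 CPM in A549_SP600125, against 8.12 and 20.7 CPM in A549_NT. In bulk samples fewer cells of a type and less RNA per cell cannot be told apart, and the part of such cells in the results was not tested.

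The response of A549 cells was compared with that of BEAS-2B cells under the same dose and time, as the SP600125 effect in A549 minus that in BEAS-2B. This difference was called higher for 1984 genes (12.1%) and lower for 2137 (13.1%). Of the AP-1 subunits 5 of 7 were lower in the difference and 0 higher, and with GC correction 4 were lower, since the difference for JUND came to 0.01. FOS stood at 141 and 138 CPM in A549_SP600125, against 323 and 311 CPM in A549_NT, and at 69.4 and 46.4 CPM in B2B_SP600125, against 7.85 and 8.92 CPM in B2B_NT. It thus was lower under SP600125 in A549 libraries and higher in BEAS-2B libraries, a difference of -3.98 ± 0.30 (adjusted p = 1.7e-06). FOSB differed by -4.63 ± 0.23, with 6.96 and 6.82 CPM in B2B_SP600125, against 3.35 and 4.11 CPM in B2B_NT. FOSL1 did not differ by the test (-0.77 ± 0.39), at 8.78 and 11.6 CPM in B2B_SP600125, against 93.4 and 98.9 CPM in B2B_NT.

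The immediate early receptor genes NR4A1 and NR4A2 differed in the same way, by -4.35 ± 0.22 and -4.37 ± 0.32. NR4A1 stood at 34.4 and 27.6 CPM in B2B_SP600125, against 6.13 and 8.10 CPM in B2B_NT, and so was higher there under SP600125. Of the lists, mitotic genes were lower in the difference in 35 of 47 cases and higher in 0, DNA replication genes lower in 37 of 42 and higher in 0, and p53 targets higher in 14 of 28 and lower in 2. With GC correction 45 mitotic and 36 DNA replication genes were lower and 0 higher, and 15 p53 targets were higher and 1 lower. SPOCD1, called higher in the difference (6.48 ± 0.45), stood at 1.19 and 2.07 CPM in A549_SP600125, against 0.889 and 0.85 CPM in A549_NT, and at 0.52 and 0.852 CPM in B2B_SP600125, against 29.7 and 34.8 CPM in B2B_NT. The B2B_NT libraries thus stood apart from the others. RGS4, ST6GAL2, HKDC1, WDR72 and SIX2 also ranked among the largest differences, but each had a group with at most 3 counts in both libraries, and no fold is given for them.

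Within A549 cells SP600125 libraries were also set beside SR11302 libraries, which had the same duration but another dose, and whose replicates differed more than those of the other A549 groups (chi-square per degree of freedom 42.3, against 2.51 in A549_SP600125 and 10 in A549_NT). Levels were higher in A549_SP600125 for 2722 genes (16.6%) and lower for 3356 (20.5%). NTS, which encodes the peptide neurotensin, stood at 317 and 327 CPM in A549_SP600125, 5.24 and 6.78 CPM in A549_SR11302 and 434 and 401 CPM in A549_NT, a difference of 5.74 ± 0.45 between the inhibitors. S100P, a calcium-binding protein, stood at 58.3 and 60.0 CPM in A549_SP600125, 2.48 and 4.02 CPM in A549_SR11302 and 9.84 and 9.88 CPM in A549_NT (4.17 ± 0.24). Against A549_NT, NTS was not called (-0.37 ± 0.35) but was called lower with GC correction (-0.77), while S100P rose (2.59 ± 0.21). CPA4, a carboxypeptidase, stood at 1.12 and 1.79 CPM in A549_SP600125, 41.3 and 44.3 CPM in A549_SR11302 and 5.67 and 7.12 CPM in A549_NT (-4.86 ± 0.29), and ABCB1, the drug efflux pump P-glycoprotein, at 3.95 and 3.72 CPM in A549_SP600125, 34.8 and 43.3 CPM in A549_SR11302 and 9.34 and 10.99 CPM in A549_NT (-3.35 ± 0.18). The other genes of the same rule were IGSF10, SYT17 and HPD among the higher (3.44 ± 0.35, 2.62 ± 0.16 and 2.62 ± 0.16) and EVA1A, GLIPR1 and KIRREL3 among the lower (-3.98 ± 0.19, -3.40 ± 0.25 and -3.35 ± 0.22).

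AP-1 subunits took different levels under the inhibitors. FOSL1 stood at 10.7 and 11.03 CPM in A549_SP600125, 67.1 and 29.8 CPM in A549_SR11302 and 178 and 174 CPM in A549_NT (-2.15 ± 0.28 between the inhibitors). FOS stood at 141 and 138 CPM in A549_SP600125, 50.8 and 83.9 CPM in A549_SR11302 and 323 and 311 CPM in A549_NT (1.04 ± 0.20). FOSL1 was thus lower under SP600125 than under SR11302, and FOS was higher. EGR1 lay between the others in the same way as FOS, at 249 and 217 CPM in A549_SP600125, 71.8 and 103 CPM in A549_SR11302 and 516 and 479 CPM in A549_NT (1.41 ± 0.16). The calls of FOSL1, FOS and EGR1 between the inhibitors held with GC correction. The comparisons share the A549_SP600125 libraries, so their values are given side by side only.

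**Figure D5:**
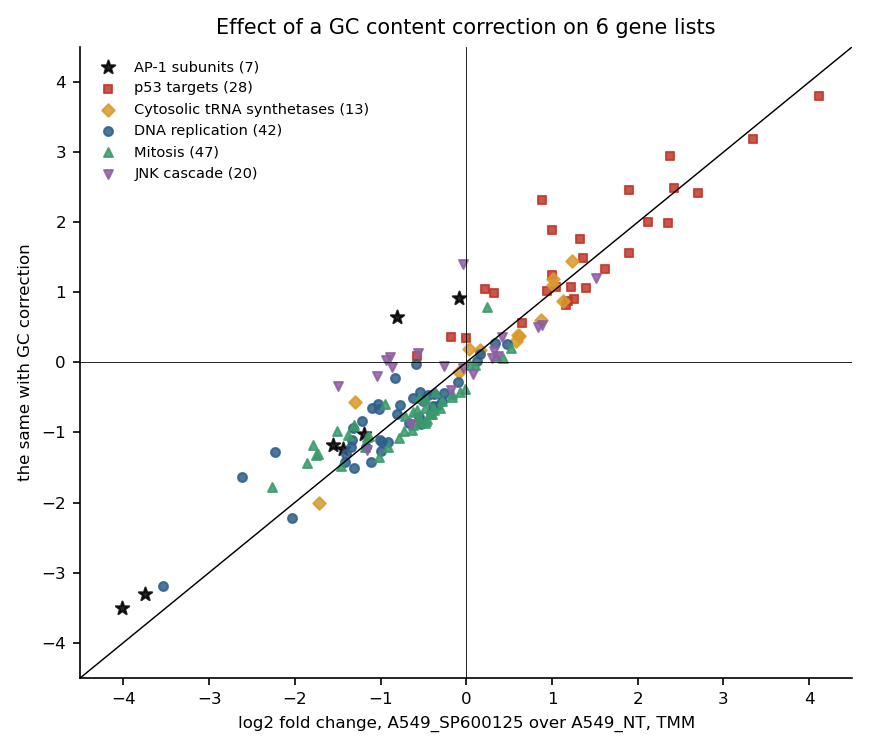
Log2 fold changes of A549_SP600125 over A549_NT with TMM scaling (x axis) against the same values after correction for GC content (y axis) for the members of 6 lists, with a line of equal values. Of 42 DNA replication genes 31 are called lower after correction and of 28 p53 targets 25 are called higher, while JUND (-0.81 and 0.65) and JUNB (-0.09 and 0.92) lie above the line and are called higher after correction.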

How the data were processed

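Messenger RNA libraries were prepared from poly(A) RNA (KAPA mRNA HyperPrep), and per the labels the authors aligned reads to hg38 with STAR 2.7.10a and deposited whole-number counts per gene symbol from HTSeq 1.99.2. Neither annotation version, strand setting nor read length was stated in these sources. HTSeq leaves out reads with several alignments, so genes with near-identical copies are undercounted. Lines that name no gene (unassigned reads) stayed out of library sizes. The filterByExpr function, TMM scaling and the quasi-likelihood test of edgeR 4.0.16 (limma 3.58.1, R 4.3.3) were applied to the deposited counts of all 12 libraries with 1 mean per group (6 residual degrees of freedom), and contrasts were adjusted by the Benjamini-Hochberg method over 16373 genes. A call needed an adjusted p under 0.05 and a log2 fold change of at least 0.5 in size. The SE is the fold change divided by the root of F. The test was checked on simulated data.

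GC content, gene position and the share of unique sequence (windows of 50 bases) came from GENCODE v44, with 24490 of 26485 symbols matched, 1329 of them through an older symbol. Promoters came from RefSeq (12449 of the genes tested). The gene lists were chosen with earlier results of these data known. Named genes were the 12 largest rises and falls with a group mean of at least 20 CPM and at least 95% unique windows (unnamed loci and small or antisense RNAs left out), up to 5 called members per list and direction, the AP-1 subunits and the oncogenes, and the 5 largest per direction in the other contrasts. Genes named outside this rule (those that did not pass the test, other list members such as CDKN1A, MDM2, MYC, EGR1, MKI67 and PLK1, and the genes whose promoters are shown) were chosen after their values were seen. A few genes that the rule takes are not reported here. Alternatives were DESeq2 1.42.0, other scalings, a GC correction, a replicate block, no filter, another fold minimum, the 4 libraries alone and fits without each library.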

Additional observations from a re-analysis of the deposited data

Results flagged for a closer look

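The SP600125 effect differed between A549 and BEAS-2B by the test of the difference itself in these genes, among the largest differences and the AP-1 subunits. SPOCD1 differed by 6.48 on the log2 scale (effect in A549 minus effect in BEAS-2B) and COBL, an actin nucleator, by -4.60. COBL stood at 30.8 and 29.3 CPM in A549_SP600125, against 48.9 and 48.7 CPM in A549_NT, and at 15.9 and 14.4 CPM in B2B_SP600125, against 0.814 and 1.18 CPM in B2B_NT. NR4A2 differed by -4.37 and NR4A1 by -4.35. Of the AP-1 subunits, FOSB differed by -4.63, FOS by -3.98, JUNB by -1.85, FOSL2 by -0.74 and JUND by -0.54. With GC correction JUND came to 0.01 and was not called. JUNB stood at 114 and 107 CPM in A549_SP600125, against 129 and 106 CPM in A549_NT, and at 61.1 and 46.6 CPM in B2B_SP600125, against 14.8 and 16.9 CPM in B2B_NT. FOSL2 was lower under SP600125 in both lines, at 131 and 126 CPM in B2B_SP600125, against 206 and 209 CPM in B2B_NT.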

How the results depend on the processing

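Counts of calls over all genes stayed within 1.5 times of those reported under DESeq2, other scalings, GC correction, unique genes only, no filter and the 4 libraries alone. Library size scaling gave 4346 genes higher and 3731 lower, against 3910 and 4087. A minimum log2 fold change of 1 left 1953 higher and 2482 lower, 1115 and 1026 in the difference between the lines, and 1036 and 1835 against SR11302, by construction. Without 1 library the counts were 3352 to 3705 higher and 3586 to 3816 lower, 1309 to 1818 and 1409 to 1888 between the lines (the fewest higher without A549_NT replicate 1 or A549_SP600125 replicate 1, the fewest lower without B2B_NT replicate 1), and 2252 to 3137 and 2610 to 3686 against SR11302. Replicate numbers did not pair the libraries (correlation of same-numbered deviations -0.0665 between A549_NT and A549_SP600125), and the replicate block gave 3864 higher and 4024 lower. ERBB2, described above, lay outside the 325 named genes checked here and changed sign with GC correction. Among those 325, where either fit made a call, the log2 fold change changed sign with GC correction for BAD 0.36, COL7A1 0.44, CRELD2 0.091, DUSP9 0.026, JUNB 0.92, JUND 0.65, MAPK8IP1 0.028, MAPK8IP3 0.081, MCOLN1 0.037, NDUFS8 0.30 and PLK3 0.086. GC correction with the replicate block gave the same values as printed except DUSP9 0.028, MAPK8IP1 0.030, MAPK8IP3 0.082, MCOLN1 0.038, PLK3 0.087. CDKN2A ranged between -6.97 and 0 without 1 library. The causes of these sign changes were not tested. Of 4173 recomputed values of 325 named genes, 3912 kept direction and side of the threshold. Of 1232 recomputed counts of list members, 1079 stayed within 1.5 times. Of those that moved, 58 did under a minimum log2 fold change of 1, 19 under GC correction, 20 under GC correction with the block, 8 with unique genes only, 5 under library size scaling, 3 with the 4 libraries alone, 2 with no filter and 1 under DESeq2, and the rest without 1 library (7 to 11 for each library left out, given beside the lists in the report). A group left with 1 library was assumed to vary like the other groups. Depth limits genes near 0 counts in a group, such as CDKN2A, whose fitted log2 values are no bound.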
